A study of Mus musculus with 6 samples.

Results

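Aminoacyl-tRNA synthetases are the enzymes that join each amino acid to its tRNA, and their genes were followed here in C2C12 cells, a mouse myoblast line that forms myotubes in low serum. The members are 37 genes, written down by name as 21 genes for enzymes of the cytosol and 16 for enzymes of the mitochondrion, of the 11835 genes to which the deposited transcripts were matched. Every member had at least 1 listed transcript, and all of them passed the limit of a mean of 0.5 FPKM that 11593 genes passed. The RNA of 3 libraries labelled as transfected with NC siRNA, a control siRNA (siNC), was compared with that of 3 labelled as transfected with CNN3 siRNA (siCNN3), which targets the transcript of calponin 3, an actin-binding protein. All 6 are cultures of the same line, grown in 10% fetal bovine serum and switched to 2% horse serum, and are labelled as mouse myotubes. Which CNN3 siRNA was used and when the cells were harvested are not given in the labels. The labels do not say how the 3 libraries of a group were obtained, so the p-values measure the spread between these libraries, which may be technical.

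The cytosol and the mitochondrion each charge their own tRNAs, so most amino acids have a pair of synthetase genes in the nucleus. Glycine and lysine are exceptions, since Gars and Kars each give the enzyme of both compartments, and mitochondrial glutamine tRNA is charged with glutamate first and then amidated. Several cytosolic synthetases sit in a multi-synthetase complex held together by scaffold proteins, while the others work on their own. In many cells a shortage of amino acids or stress in the endoplasmic reticulum raises translation of the transcription factor ATF4, whose known targets include many cytosolic synthetase genes along with amino acid transporters and enzymes of amino acid synthesis.

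Values are FPKM, fragments per kilobase of transcript scaled to the mapped total of each library, summed over the transcripts of a gene. FPKM is per length, so levels of different genes can be set side by side. Differences were tested on log2(FPKM + 1), where the added 1 makes the change of a gene with few FPKM look smaller than it is, and a gene was called when its adjusted p from limma was below 0.05. Cnn3 itself was at 62.8, 61.4 and 62.8 FPKM in the siNC libraries against 19.0, 39.2 and 25.6 FPKM in siCNN3, so the groups did not overlap, but it was not called (limma log2 fold change -1.19, adjusted p = 0.0669). The labelled cell type was checked against myotube markers. Of 15 such genes 13 are listed, and Ttn and Actn2 are not. In siNC the desmin gene Des was between 113 and 125 FPKM, the skeletal actin gene Acta1 between 24.6 and 33.8, the myosin light chain gene Mylpf between 22.8 and 36.5 and Actn3 between 17.8 and 19.4. The other 9 ranged from muscle creatine kinase (Ckm), between 0.414 and 0.911 FPKM, to Tnnt3, between 7.43 and 10.4, and the proliferation marker Mki67 was between 28.9 and 45.5 FPKM. In bulk RNA, a smaller share of cells of a type and less RNA per cell cannot be told apart.

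Cytosolic synthetase RNA was more abundant in siCNN3 than in siNC. The 21 cytosolic genes summed to 604, 756 and 714 FPKM in siNC replicates 1, 2 and 3 and to 1475, 1439 and 1035 FPKM in siCNN3 replicates 1, 2 and 3, a ratio of the group means of 1.90. Of these genes, 7 were called higher, or 33.3%, and 0 lower, while of all genes tested 1.73% were called higher and 0.336% lower. The genes called higher were Nars, Cars, Gars, Iars, Yars, Sars and Kars. Every siCNN3 library was above every siNC library for 16 of 21 genes, or 76.2%, compared with 13.8% of all tested genes. Their median log2 fold change was 1.03, compared with 0.028 over all tested genes, and 20 of 21 were above 0 (19 after quantile normalization, with the most abundant transcript, or when siNC replicate 1 or either of the first 2 siCNN3 replicates was left out). Over all genes, 200 were called higher and 39 lower, and 199 and 93 after quantile normalization, where 6 cytosolic genes were called higher.

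**Figure D1:**
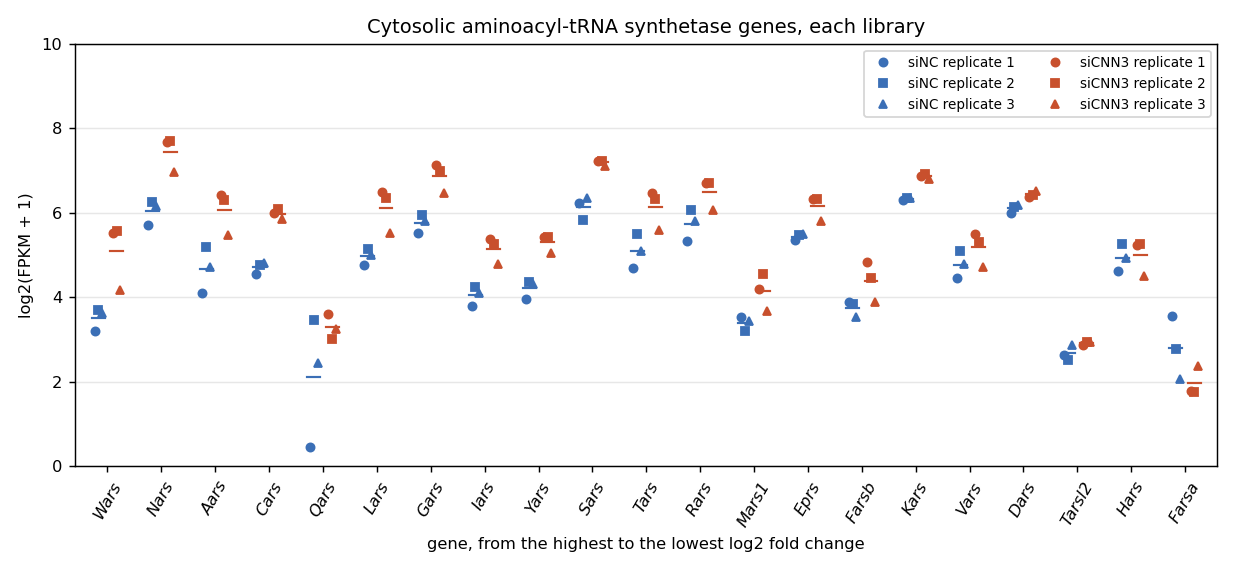
Levels of the 21 cytosolic synthetase genes, as log2(FPKM + 1) on the vertical axis, in each siNC (blue) and siCNN3 (red) library, with a symbol for each replicate and a line at each group mean. The groups do not overlap for 16 genes, and siCNN3 replicate 3 (red triangle) is the lowest of the siCNN3 libraries for 17 of the 21.

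How many genes were called depended on single libraries. Without siCNN3 replicate 3, the library with the smallest difference, 13 cytosolic genes were called, and the calls over all genes went from 239 to 602. Leaving out siNC replicate 2 gave 2 cytosolic calls, and leaving out siNC replicate 1 or siCNN3 replicate 1 gave 1 each. No cytosolic gene was called by limma without siNC replicate 3 or without siCNN3 replicate 2, when 20 and 32 genes were called in all. At an unadjusted p below 0.05 there were 16 and 12 of the 21 cytosolic genes. Over all genes there were 1340 of 11584 and 1145 of 11571. The median log2 fold change of the cytosolic genes lay between 0.82 and 1.08 in the 6 fits with a library left out. Over all 6 libraries it was 0.79 when transcripts that can hold a failed estimate were removed. It was 0.76 with the most abundant transcript in place of the sum.

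Of the enzymes outside the complex, asparaginyl-tRNA synthetase (Nars) had the largest change among the called genes. Nars was at 51.5, 75.6 and 71.1 FPKM in the siNC libraries against 203, 206 and 125 FPKM in siCNN3. All 3 siCNN3 values were above the highest siNC value, and the mean rose 2.70-fold (limma log2 fold change 1.40 with SE 0.24, adjusted p = 0.0406). In siNC the means of Kars, Sars and Dars were above that of Nars, and in siCNN3 Nars had the highest mean of the cytosolic genes. The cysteine enzyme gene Cars (chromosome 7, 143557230 to 143600090, GRCm38) had 22.7, 26.1 and 26.9 FPKM in the siNC libraries against 63.0, 66.9 and 57.0 FPKM in siCNN3. Its replicates lay close together and far from the other group, and it had the lowest adjusted p of all members (limma log2 fold change 1.27 with SE 0.12, adjusted p = 0.00990). Both of its listed transcripts were higher in every siCNN3 library than in any siNC library.

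Gars (chromosome 6, 55038007 to 55079500), whose product charges glycine tRNAs in both compartments, was at 45.0, 61.1 and 54.7 FPKM in the siNC libraries against 141, 127 and 87.8 FPKM in siCNN3. The siCNN3 libraries were all above the siNC libraries, and Gars lay just inside the threshold (limma log2 fold change 1.11 with SE 0.20, adjusted p = 0.0495). Seryl-tRNA synthetase (Sars; chromosome 3, 108424865 to 108445209) had 74.5, 56.4 and 81.4 FPKM in the siNC libraries against 149, 150.3 and 138 FPKM in siCNN3, with the siCNN3 libraries closer to each other than the siNC libraries. Sars rose 2.06-fold (limma log2 fold change 1.05 with SE 0.15, adjusted p = 0.0257). Its sum in siNC replicate 2 includes a transcript listed at 0 there, which can be a failed estimate. With failed estimates removed the log2 fold change was 0.79 (adjusted p = 0.0338, limma). With the most abundant transcript it was 0.74 (adjusted p = 0.129, limma). For the tyrosine enzyme gene Yars (chromosome 4, 129189760 to 129219607) the values were 14.6, 19.7 and 19.0 FPKM in the siNC libraries against 42.1, 41.8 and 32.3 FPKM in siCNN3. These groups did not overlap either (limma log2 fold change 1.08 with SE 0.17, adjusted p = 0.0321). When each library was left out in turn, Cars kept its call in 4 of 6 fits, with an adjusted p of at most 0.0579 in the fits that left out the third siNC or the second siCNN3 library, Sars lost it except when siNC replicate 2 or siCNN3 replicate 3 was left out (adjusted p reached 0.125 otherwise), and Nars, Gars and Yars kept theirs only without siCNN3 replicate 3 (adjusted p up to 0.156, 0.198 and 0.150, limma).

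In the multi-synthetase complex, the 8 member enzymes were all above 0, their median being 0.75 on the log2 scale, and 2 were called higher, compared with a median of 1.05 and 5 called higher among the 13 genes outside it. The isoleucine enzyme gene Iars (chromosome 13, 49682100 to 49734267) had 13.0, 18.0 and 16.2 FPKM in the siNC libraries against 40.5, 37.8 and 26.9 FPKM in siCNN3. Again no siCNN3 library reached down to the siNC values (limma log2 fold change 1.10 with SE 0.20, adjusted p = 0.0491). Kars, the lysine enzyme gene of both compartments (chromosome 8, 111993443 to 112011323), had 78.6, 80.2 and 80.5 FPKM in the siNC libraries against 116, 121 and 110.3 FPKM in siCNN3. Its change was the smallest of the called members, on the narrowest spread between siNC libraries relative to its mean (limma log2 fold change 0.53 with SE 0.093, adjusted p = 0.0442). Of the 6 fits with a library left out, only that without siCNN3 replicate 3 called Iars and Kars, and their adjusted p reached 0.196 and 0.243 otherwise.

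The leucine enzyme gene Lars was at 30.7 ± 4.23 FPKM in the siNC libraries against 71.8 ± 23.4 FPKM in siCNN3 (mean ± SD, n = 3), and the groups did not overlap, but it was not called (limma log2 fold change 1.15, adjusted p = 0.0873). Eprs, which encodes a fused enzyme for glutamate and proline, was at 42.5 ± 2.30 FPKM in the siNC libraries against 71.4 ± 14.5 FPKM in siCNN3 (mean ± SD, n = 3) with an adjusted p of 0.0935. In arginyl-tRNA synthetase (Rars) the groups were just apart, at 39.6, 66.1 and 55.5 FPKM in the siNC libraries against 104, 103 and 66.7 FPKM in siCNN3 (adjusted p = 0.194). The methionine enzyme gene Mars1 averaged 9.60 ± 1.24 FPKM in the siNC libraries against 17.2 ± 5.28 FPKM in siCNN3 (mean ± SD, n = 3), again without overlap (adjusted p = 0.185). Exons of Mars1 share bases with those of Ddit3 on the opposite strand, a gene that was called higher, and whether the libraries kept strand is not stated, so reads of the pair may be shared. Dars, for aspartate, was at 68.1 ± 4.67 FPKM in the siNC libraries against 85.7 ± 4.02 FPKM in siCNN3 (mean ± SD, n = 3), a ratio of 1.26 with no overlap (adjusted p = 0.187). Glutaminyl-tRNA synthetase (Qars) varied most within a group, with 0.381, 10.00 and 4.45 FPKM in the siNC libraries against 11.3, 7.04 and 8.57 FPKM in siCNN3. Its groups overlapped, and the estimate of 1.17 on the log2 scale came with an SE of 0.69 (adjusted p = 0.458), and ranged from 0.34 to 1.84 as single libraries were left out.

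The scaffolds of the complex were measured beside its enzymes. Aimp1, the most abundant of them, had 85.2, 72.4 and 78.1 FPKM in the siNC libraries against 80.8, 88.9 and 94.7 FPKM in siCNN3. Aimp2 had 13.6, 16.4 and 16.1 FPKM in the siNC libraries against 21.9, 22.5 and 15.5 FPKM in siCNN3. Eef1e1, which encodes the scaffold also named AIMP3, had 5.85, 6.54 and 7.43 FPKM in the siNC libraries against 11.7, 12.0 and 8.16 FPKM in siCNN3. Only the Eef1e1 groups did not overlap, and 0 of the 3 were called (log2 fold changes 0.16, 0.34 and 0.60, lowest adjusted p = 0.175, limma). At an unadjusted p below 0.05 there was 1 such gene.

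Over all 6 libraries, the largest log2 fold change of the synthetase genes belonged to Wars, for tryptophan, a gene known to respond to interferon (chromosome 12, 108860030 to 108894174). Wars was at 8.27, 12.0 and 11.5 FPKM in the siNC libraries against 45.0, 46.4 and 17.1 FPKM in siCNN3. The first and second siCNN3 libraries were far above siNC and the third only somewhat above it, and Wars was not called (limma log2 fold change 1.57 with SE 0.38, adjusted p = 0.103). Without siCNN3 replicate 3 it was called (limma log2 fold change 2.03, adjusted p = 0.00446). With the most abundant transcript in place of the sum, Wars was at 1.11 (adjusted p = 0.404), no longer the largest, and among the fits with a library left out Qars reached 1.84. Alanyl-tRNA synthetase (Aars; chromosome 8, 111033144 to 111057664) had 16.2, 35.9 and 25.5 FPKM in the siNC libraries against 84.5, 78.2 and 43.4 FPKM in siCNN3. Here too the groups did not overlap and the third siCNN3 library was the lowest of its group (limma log2 fold change 1.39 with SE 0.35, adjusted p = 0.107, and 0.0424 without siCNN3 replicate 3, limma). The threonine enzyme gene Tars, at 34.3 ± 9.90 FPKM in the siNC libraries against 71.8 ± 21.4 FPKM in siCNN3 (mean ± SD, n = 3), had groups apart and an adjusted p of 0.138 (log2 fold change 1.03). The valine enzyme gene Vars, at 26.9 ± 6.04 FPKM in the siNC libraries against 36.3 ± 9.87 FPKM in siCNN3 (mean ± SD, n = 3), had overlapping groups (limma log2 fold change 0.40, adjusted p = 0.476).

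Farsa, Hars and Tarsl2 stood at the other end of the cytosolic genes. Farsa and Farsb encode the subunits of the same cytosolic enzyme, for phenylalanine. Farsa was at 10.7, 5.90 and 3.18 FPKM in the siNC libraries against 2.44, 2.42 and 4.18 FPKM in siCNN3, the only cytosolic gene below 0 in the fit to all 6 libraries with summed transcripts and no further scaling (limma log2 fold change -0.82 with SE 0.38, adjusted p = 0.351, and -0.45 without siNC replicate 1 or -1.19 without siNC replicate 3). Farsb was at 13.9, 13.3 and 10.7 FPKM in the siNC libraries against 27.8, 20.9 and 13.9 FPKM in siCNN3, with groups that barely parted (limma log2 fold change 0.64, adjusted p = 0.277). On the log2(FPKM + 1) scale Farsb exceeded Farsa by 0.35, 1.06 and 1.48 in siNC and by 3.07, 2.68 and 1.53 in siCNN3, with siCNN3 replicate 3 close to siNC replicate 3. The Farsb transcript of 2036 bases is listed at 0 in siNC replicate 3, against 7.19 and 10.01 FPKM in the other siNC libraries, which can be a failed estimate. The transcript of 1951 bases was at 8.01 FPKM there, against 4.54 and 0.555 FPKM in the other siNC libraries. Whether the sum of Farsb in siNC replicate 3 is too low cannot be told. The histidine enzyme gene Hars was at 23.8, 37.6 and 29.5 FPKM in the siNC libraries against 37.2, 37.7 and 21.6 FPKM in siCNN3. Its groups overlapped, and the estimate of 0.065 on the log2 scale (limma, SE 0.26, adjusted p = 0.933) was -0.037 after quantile normalization, and lay between -0.091 and -0.058 when siNC replicate 1 or either of the first 2 siCNN3 replicates was left out. Tarsl2, another cytosolic gene for threonine, was at 5.21, 4.72 and 6.39 FPKM in the siNC libraries against 6.33, 6.74 and 6.76 FPKM in siCNN3, with overlapping groups (limma log2 fold change 0.25 with SE 0.15, adjusted p = 0.467).

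None of the 16 mitochondrial synthetase genes was called in either direction by limma, and 0 had an unadjusted p below 0.05. Together they summed to 54.0, 67.5 and 60.1 FPKM over the siNC libraries and to 77.8, 65.7 and 52.0 FPKM in siCNN3, and these groups overlapped. Their median log2 fold change was 0.088, with 9 above 0 and 7 below. This median turned below 0 without siNC replicate 1 (-0.069, 6 above 0) and without siCNN3 replicate 1 (-0.0085), and was 0.13 with 12 above 0 without siCNN3 replicate 3. Every siCNN3 library was above every siNC library for 2 of them, or 12.5%, near the 13.8% of all tested genes. They were also less abundant, with siNC means between 1.03 and 10.9 FPKM compared with 4.94 to 79.8 FPKM for the cytosolic genes. The 95% confidence interval of the log2 fold change from limma included 0 for all 16.

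**Figure D2:**
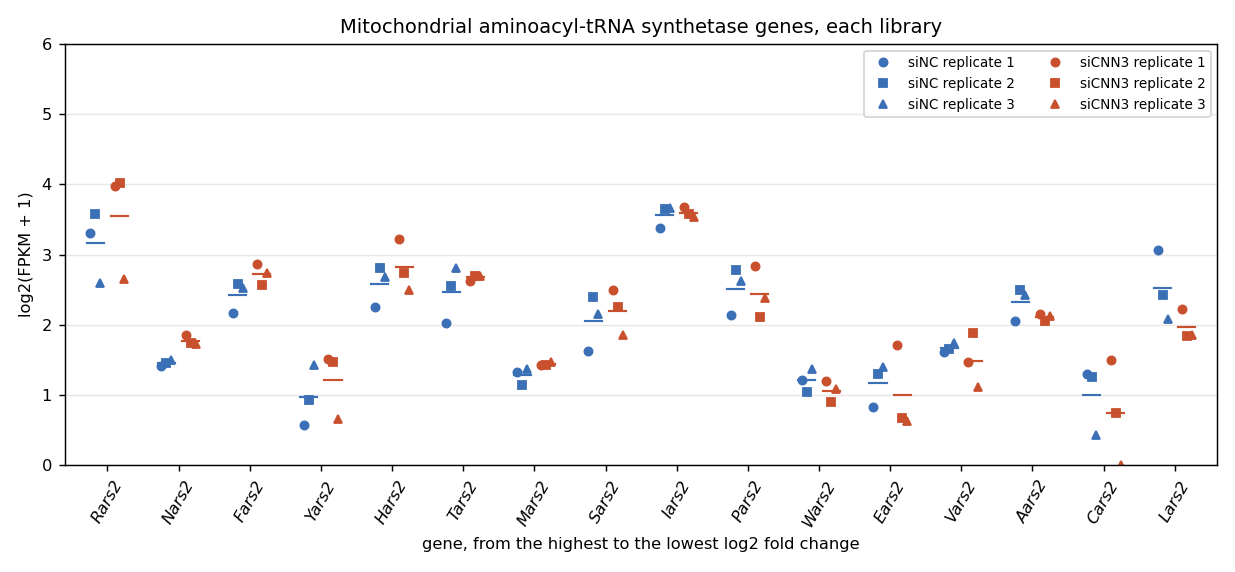
Levels of the 16 mitochondrial synthetase genes, as log2(FPKM + 1) on the vertical axis, in each siNC (blue) and siCNN3 (red) library, with a symbol for each replicate and a line at each group mean. The groups overlap for 14 genes, and do not for Nars2 and Mars2.

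Rars2, for arginine, had the highest log2 fold change of the mitochondrial genes over all 6 libraries. Rars2 was at 8.92, 10.9 and 5.06 FPKM in the siNC libraries against 14.8, 15.2 and 5.29 FPKM in siCNN3, so the third library of each group was low (limma log2 fold change 0.39 with SE 0.42, adjusted p = 0.701). Its log2 fold change was 0.11 without siNC replicate 3, where it was no longer the highest, and 0.84 without siCNN3 replicate 3. Nars2, for asparagine, was at 1.66, 1.75 and 1.84 FPKM in the siNC libraries against 2.63, 2.35 and 2.32 FPKM in siCNN3, with no overlap (limma log2 fold change 0.32 with SE 0.14, adjusted p = 0.328, the lowest of the mitochondrial genes). Mars2, the methionine enzyme gene, also had groups apart, at 1.44 ± 0.205 FPKM in the siNC libraries against 1.72 ± 0.0481 FPKM in siCNN3 (mean ± SD, n = 3). Fars2, for phenylalanine, was at 3.48, 5.02 and 4.76 FPKM in the siNC libraries against 6.30, 4.94 and 5.67 FPKM in siCNN3 (limma log2 fold change 0.30 with SE 0.17, adjusted p = 0.450), and here siCNN3 replicate 2 lay among the siNC values. Without siNC replicate 1 it was at 0.17, and with the most abundant transcript at 0.50.

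At the low end, Lars2, for leucine, was at 7.37, 4.38 and 3.22 FPKM in the siNC libraries against 3.68, 2.58 and 2.63 FPKM in siCNN3. Its siNC mean was carried by replicate 1, and the groups overlapped (limma log2 fold change -0.55 with SE 0.27, adjusted p = 0.379, and -0.28 without that library). Cars2, for cysteine, was at 1.46, 1.39 and 0.349 FPKM in the siNC libraries against 1.82, 0.669 and 0 FPKM in siCNN3, where the third value is listed at 0 and can be a failed estimate (limma log2 fold change -0.25 with SE 0.42, adjusted p = 0.808, 0.12 without that library and -0.94 with a pseudocount of 0.1). Aars2, for alanine, was at 3.16, 4.65 and 4.38 FPKM in the siNC libraries against 3.43, 3.18 and 3.37 FPKM in siCNN3 (limma log2 fold change -0.21 with SE 0.17, adjusted p = 0.580, and between -0.35 and -0.13 as single libraries were left out). The remaining mitochondrial genes, Ears2, Hars2, Iars2, Pars2, Sars2, Tars2, Vars2, Wars2 and Yars2, had overlapping groups, with log2 fold changes from -0.18 for Vars2 to 0.24 for Yars2.

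**Figure D3:**
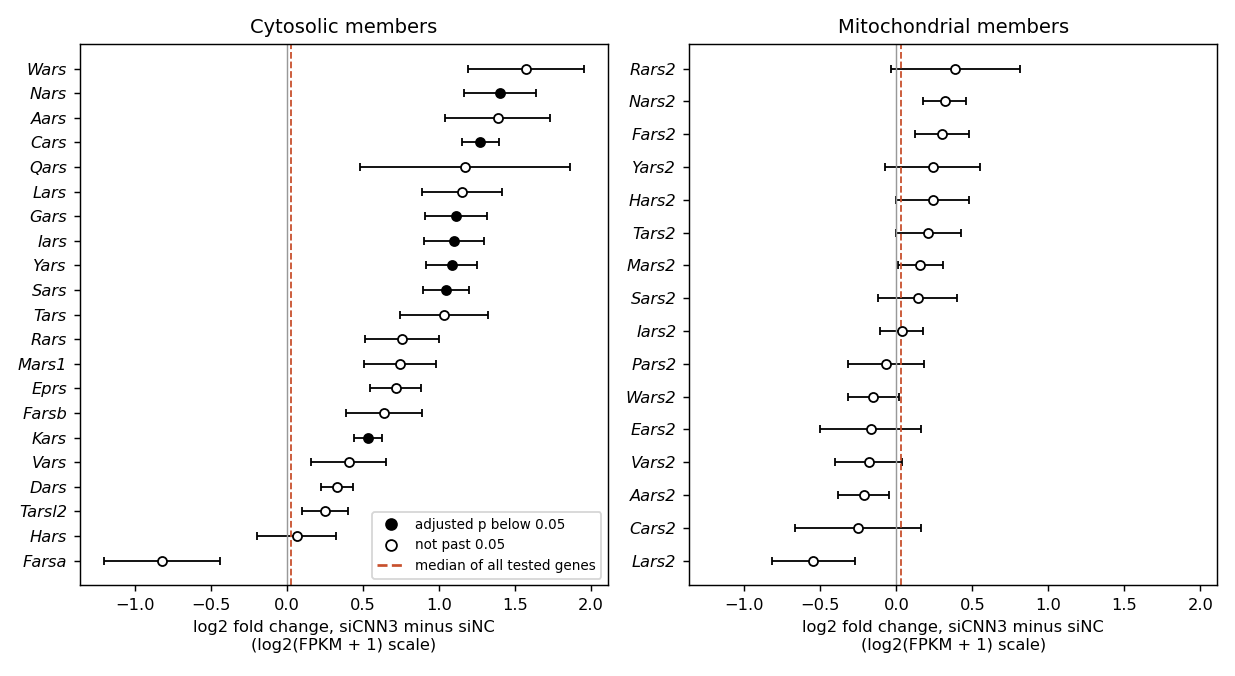
Log2 fold change of each member, siCNN3 minus siNC on the log2(FPKM + 1) scale, with its standard error as a horizontal bar, for cytosolic (left) and mitochondrial (right) genes. Filled points are the 7 called genes, the dashed line is the median of all tested genes at 0.028, and the cytosolic points reach 1.57 where the mitochondrial points reach 0.39.

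Cytosolic and mitochondrial genes for the same amino acid were set against each other within each library, as the difference of their log2(FPKM + 1), which gave 18 pairs, with Eprs, Fars2 and Tars2 each in more than 1. In 11 pairs this difference was larger in every siCNN3 library than in any siNC library, in 7 it overlapped, and in 0 it was smaller throughout. The share over pairs of other genes was not computed, and 16 of 21 cytosolic genes had groups apart on their own. Yars2, Cars2, Ears2 and Wars2 had siNC means of 1.03, 1.07, 1.29 and 1.33 FPKM. At such levels the added 1 shrinks a change, so the difference can restate that of the cytosolic gene. For isoleucine, the difference between Iars and Iars2 was 0.43, 0.59 and 0.45 in siNC and 1.69, 1.70 and 1.27 in siCNN3, a change of 1.06 with a SE of 0.15. These genes had similar levels in siNC, where Iars had 1.45 times the mean FPKM of Iars2, and 3.15 times in siCNN3. For asparagine, the difference between Nars and Nars2 was 4.30, 4.80 and 4.66 in siNC and 5.81, 5.95 and 5.25 in siCNN3, a change of 1.08 with a SE of 0.26. Alanine (Aars and Aars2) and leucine (Lars and Lars2) had differences that moved by 1.60 and 1.70, with SE of 0.36 and 0.46. Tryptophan had the largest change, 1.72 with a SE of 0.51, and the other pairs that did not overlap were those of Cars, Sars, Vars and Yars and both pairs of Eprs.

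The pairs that overlapped were those of Farsa, Farsb, Hars, Mars1, Rars, Tars and Tarsl2. For histidine, Hars minus Hars2 was 2.38, 2.47 and 2.25 in siNC and 2.03, 2.54 and 2.01 in siCNN3, and exons of these neighbouring genes share bases on opposite strands. For arginine, Rars minus Rars2 was 2.03, 2.49 and 3.22 in siNC and 2.74, 2.69 and 3.43 in siCNN3, as both genes were higher on average in siCNN3. With 3 libraries against 3, an exact two-sided permutation test of a single pair gives 0.1 at the least, the p of each pair whose groups do not overlap, so no pair could pass 0.05.

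**Figure D4:**
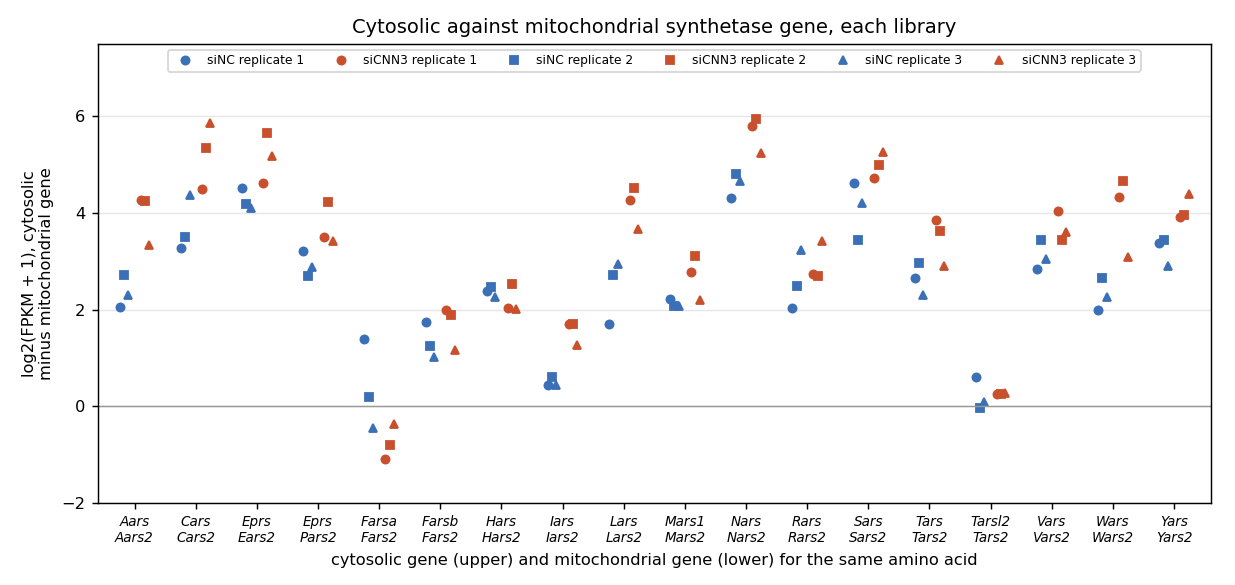
Difference in log2(FPKM + 1) between the cytosolic and the mitochondrial gene for the same amino acid (vertical axis) in each siNC (blue) and siCNN3 (red) library, for 18 pairs. In 11 pairs the red symbols all lie above the blue ones, and in 0 pairs all below.

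A list of cytosolic genes that are often given as targets of ATF4 was written from general knowledge, with earlier results of these data known. These genes were compared with the rest as a description only. The 13 such genes (Aars, Cars, Eprs, Gars, Iars, Lars, Mars1, Nars, Sars, Tars, Vars, Wars and Yars) had a median of 1.10 on the log2 scale, with 6 called higher and 12 with groups apart. The other 8 (Dars, Farsa, Farsb, Hars, Kars, Qars, Rars and Tarsl2) had a median of 0.43, with 1 called higher, Kars, and 4 with groups apart. By structural class the medians were 1.09 for the 10 class I genes and 0.64 for the 11 class II genes, with 3 and 4 called higher, where Eprs, whose prolyl part is of class II, was counted in class I by its glutamyl part.

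Promoters of the members were searched for TGATGNAA, letters found at sites that ATF4 binds together with C/EBP factors, on both strands. RefSeq promoters of GRCm38.p6, from 250 bases before to 50 after the start, were matched for 28 members, 14 of each compartment, and not for Cars, Hars, Lars, Nars, Rars, Vars, Wars, Hars2 and Pars2. The letters were found in 5 of the cytosolic promoters, those of Aars, Gars, Iars, Tars and Yars, and in 0 of the mitochondrial ones, while 4.51% of the 27025 genes with a promoter hold them. The 5 genes had log2 fold changes between 1.03 and 1.39, and the 9 other cytosolic genes with a promoter had a median of 0.64 and a range from -0.82 (Farsa) to 1.17 (Qars), with Sars (1.05) and Qars inside the range of the genes that hold the letters. The promoters with the letters are shown 5′ to 3′ on the strand of the gene, to show where the matches lie, with the matched bases in capitals.
Aars, chr8:111033592-111033891, strand +: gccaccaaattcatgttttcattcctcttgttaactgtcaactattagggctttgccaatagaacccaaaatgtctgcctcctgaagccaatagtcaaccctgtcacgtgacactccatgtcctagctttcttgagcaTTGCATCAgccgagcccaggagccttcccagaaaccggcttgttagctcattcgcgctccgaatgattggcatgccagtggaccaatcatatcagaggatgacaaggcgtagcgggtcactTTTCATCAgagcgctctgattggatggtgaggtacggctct
Gars, chr6:55037751-55038050, strand +: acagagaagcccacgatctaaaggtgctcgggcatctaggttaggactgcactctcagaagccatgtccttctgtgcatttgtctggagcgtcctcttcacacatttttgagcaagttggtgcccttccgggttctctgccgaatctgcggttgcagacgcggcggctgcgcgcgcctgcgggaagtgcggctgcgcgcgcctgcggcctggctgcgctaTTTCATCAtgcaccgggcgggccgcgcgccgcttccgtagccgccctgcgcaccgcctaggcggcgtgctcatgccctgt
Iars, chr13:49681880-49682179, strand +: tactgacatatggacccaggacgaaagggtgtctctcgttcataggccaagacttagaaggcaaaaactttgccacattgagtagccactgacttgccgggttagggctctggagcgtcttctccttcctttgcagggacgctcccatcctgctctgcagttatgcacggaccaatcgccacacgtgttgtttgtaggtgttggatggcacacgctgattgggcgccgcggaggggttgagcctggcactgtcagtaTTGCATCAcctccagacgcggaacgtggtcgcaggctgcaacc
Tars, chr15:11399609-11399908, strand -: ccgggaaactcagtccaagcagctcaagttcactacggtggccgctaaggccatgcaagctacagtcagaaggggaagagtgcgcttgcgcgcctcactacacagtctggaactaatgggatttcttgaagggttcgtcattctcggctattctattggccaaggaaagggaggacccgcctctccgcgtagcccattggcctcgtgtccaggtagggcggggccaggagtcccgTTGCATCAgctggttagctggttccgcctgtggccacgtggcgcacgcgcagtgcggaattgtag
Yars, chr4:129189653-129189952, strand +: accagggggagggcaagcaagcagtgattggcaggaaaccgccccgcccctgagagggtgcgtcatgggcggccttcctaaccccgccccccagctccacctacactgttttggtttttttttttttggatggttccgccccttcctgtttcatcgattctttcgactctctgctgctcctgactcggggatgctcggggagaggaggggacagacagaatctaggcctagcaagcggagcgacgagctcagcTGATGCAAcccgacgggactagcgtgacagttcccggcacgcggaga

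The matches began 112 bases before the start and 9 bases after the start in Aars, 30 bases before the start in Gars, 7 bases after the start in Iars, 15 bases before the start in Tars and 3 bases after the start in Yars. A pair of GAAA separated by any 2 bases, a pattern bound by interferon regulatory factors and searched in the same way, was found in 1 cytosolic promoter, Qars, and 0 mitochondrial ones, against 3.99% of all genes. A match of letters is a description of the sequence and does not show that a factor binds there.

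Genes of the amino acid stress response, the other known targets of ATF4, were measured in the same libraries. Of 22 tested genes, 9 were called higher and 0 lower, compared with 1.73% called higher over all tested genes. In 19 the siCNN3 libraries all lay above siNC, compared with 13.8% of all tested genes. The median log2 fold change was 1.70. Ddit4, Slc38a2 and Cebpb had overlapping groups, with log2 fold changes of 0.12, -0.048 and -0.00062. Atf4 itself was at 136, 189 and 185 FPKM in the siNC libraries against 399.8, 356 and 287 FPKM in siCNN3 (limma log2 fold change 1.03, adjusted p = 0.0427). Asns, which makes asparagine, was at 14.6, 13.9 and 14.5 and 95.9, 80.7 and 53.2 FPKM (limma log2 fold change 2.30, adjusted p = 0.00972). The largest changes of the list on the log2(FPKM + 1) scale were those of Trib3, a feedback inhibitor of ATF4, and of Nupr1 and Chac1, with log2 fold changes of 2.91, 2.79 and 2.79 (adjusted p = 0.0144, 0.00990 and 0.00473, limma). By the ratio of mean FPKM, Slc7a11, a cystine transporter gene that was not called, had the largest change of the list, 16.8-fold, from a low siNC mean of 0.318 FPKM. Ddit3, which encodes CHOP, was at 122, 72.8 and 71.2 FPKM in the siNC libraries against 438, 379 and 570.1 FPKM in siCNN3. In Ddit3 and Nupr1 siCNN3 replicate 3 was the highest library of its group, whereas in Asns and Trib3, as in most cytosolic synthetase genes, it was the lowest.

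Other genes of tRNA charging and use were followed in the same way, and none of their lists held a called gene. Of the 7 genes for amidation, formylation and selenocysteine (Gatb, Gatc, Qrsl1, Mtfmt, Sepsecs, Pstk and Secisbp2), 0 were called by limma and 1 higher and 1 lower gene had an unadjusted p below 0.05, with log2 fold changes between -0.51 for Mtfmt, which formylates the mitochondrial initiator, and 0.43 for Gatb, a subunit of the amidating enzyme. Proofreading genes (Aarsd1, Dtd1, Dtd2 and Prorsd1) had log2 fold changes between -0.18 and 0.28, 0 calls and 0 at an unadjusted p below 0.05. Of 6 genes of tRNA export and use, 0 were called, 2 were higher (Xpot and Eef1g) and 2 lower (Eef1a1 and Eef1b2) at an unadjusted p below 0.05. Xpot, the exporter of tRNA from the nucleus, was at 15.2, 21.9 and 19.9 FPKM in the siNC libraries against 38.8, 38.3 and 20.9 FPKM in siCNN3, overlapping through siCNN3 replicate 3 (limma log2 fold change 0.71, adjusted p = 0.253). Eef1a1, the elongation factor that carries charged tRNA to the ribosome, was at 2108, 1949.9 and 1852 and 1605, 1557 and 1839.7 FPKM (limma log2 fold change -0.24, adjusted p = 0.301). Eef1g, a subunit of the factor that reloads Eef1a1 with GTP, had groups apart, at 157, 160.1 and 165 FPKM in the siNC libraries against 192, 183 and 188 FPKM in siCNN3 (limma log2 fold change 0.22, adjusted p = 0.276).

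Libraries were set in order by the mean of each list on the log2(FPKM + 1) scale, relative to the siNC mean. For the cytosolic synthetase genes this mean was -0.22, 0.18 and 0.032 in siNC and 0.99, 0.94 and 0.49 in siCNN3, and siCNN3 lay above siNC throughout. For the mitochondrial genes it was -0.13, 0.11 and 0.025 in siNC and 0.27, 0.020 and -0.21 in siCNN3, with the groups mixed. The amino acid stress response was at -0.12, 0.052 and 0.065 in siNC and 1.81, 1.67 and 1.19 in siCNN3. A list of 16 interferon response genes was at -1.19, 1.36 and -0.16 and 4.66, 4.62 and 3.45, and all 16 had siCNN3 libraries above siNC, with 9 called higher. Myotube markers were at -0.21, 0.26 and -0.045 and -1.41, -1.31 and -1.21, with 7 of 12 tested genes called lower. Within siNC, replicate 1 was the lowest in each of these lists and replicate 2 the highest in each except the stress response. Within siCNN3, replicate 3 was the lowest in each except the myotube markers, where it was the highest. The summed FPKM of the 6 listed blood and immune markers, mostly globins, was 235, 658 and 236 in siNC and 71.0, 76.2 and 54.0 in siCNN3, and 2 of them, Hbb-bs and Hbb-bt, were called lower. Of that list 8 genes, Ptprc, Itgam, Csf1r and Cd3e among them, have no listed transcript, and of the 4 endothelial markers only Tek is listed, near 1 FPKM. Markers of dividing myoblasts had 0 calls among 7 tested, a median of 0.076 on the log2 scale and 1 gene, Myf5, at an unadjusted p below 0.05. The part of ATF4 or of the amino acid stress response in the synthetase differences was not tested. Nor was that of the interferon response, of the myotube markers or of the globins.

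**Figure D5:**
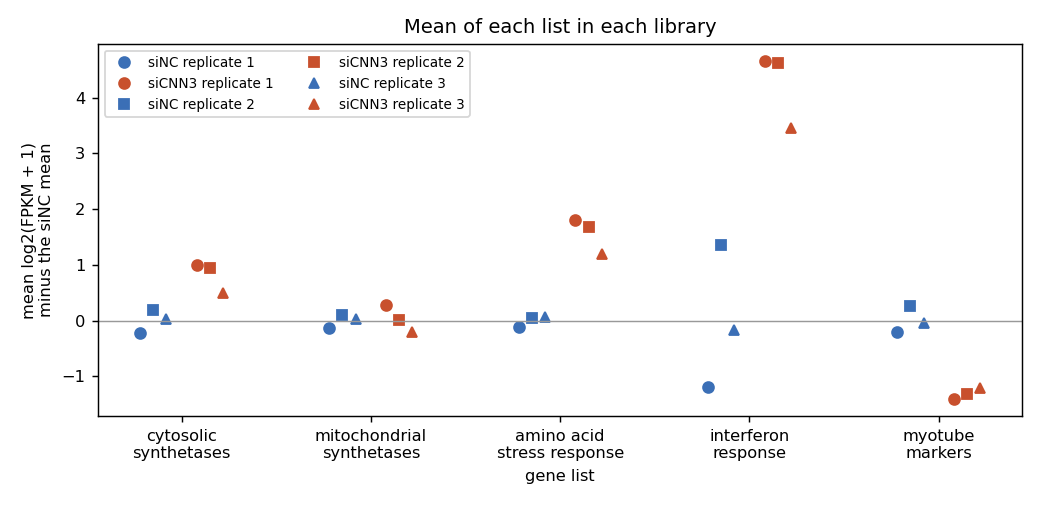
Mean log2(FPKM + 1) of each gene list in each library, minus its siNC mean (vertical axis), for cytosolic and mitochondrial synthetases, the amino acid stress response, the interferon response and myotube markers (horizontal axis). Cytosolic synthetases reach 0.99, 0.94 and 0.49 in the siCNN3 libraries (red), while mitochondrial synthetases stay within -0.21 and 0.27.

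The order of the siCNN3 libraries was not that of Cnn3. Cnn3 was lowest in siCNN3 replicate 1 and highest in replicate 2, at 19.0 and 39.2 FPKM, and these libraries had nearly the same sum of cytosolic synthetase FPKM, while replicate 3, with 25.6 FPKM of Cnn3 between them, had the lowest sum. The cytosolic members were lowest of the siNC libraries in replicate 1 for 16 of 21 genes. The total FPKM over all transcripts lay between 322621 and 355591 over the libraries. The part of this total in the differences was not tested.

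The members have 70 listed transcripts, all annotated as protein coding, 17 genes have more than 1, and 10 transcripts are listed at 0 in some library. For Wars, the transcript of 2831 bases was at 7.87, 11.5 and 3.91 FPKM in the siNC libraries against 33.5, 10.2 and 13.1 FPKM in siCNN3, and that of 1824 bases at 0.397, 0.485 and 5.24 and 10.8, 32.1 and 3.24 FPKM, so siCNN3 replicates 1 and 2 had similar sums through different transcripts. For Iars, the transcript of 4426 bases was at 0.523, 3.09 and 0.0250 FPKM in the siNC libraries against 6.77, 21.9 and 3.54 FPKM in siCNN3, and with the most abundant transcript in place of the sum Iars was at 0.64 on the log2 scale (limma, adjusted p = 0.404). For Sars, the transcript of 1067 bases was at 14.7, 0 and 17.6 FPKM in the siNC libraries against 35.0, 41.8 and 45.7 FPKM in siCNN3, with a value of 0 that can be a failed estimate, and the main transcript of 3570 bases at 35.8, 47.0 and 32.0 and 68.4, 67.6 and 56.2 FPKM. In Kars, a transcript of 2189 bases at 8.96, 10.2 and 8.49 FPKM in siNC was at 7.13, 7.57 and 23.8 FPKM in siCNN3, high only in replicate 3, while the most abundant transcript was at 32.9, 36.3 and 40.8 and 55.0, 59.1 and 49.5 FPKM, with siCNN3 above siNC in every library. Taking the most abundant transcript in place of the sum left 1 cytosolic gene called, with 19 of 21 above 0.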

How the data were processed

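The authors deposited FPKM for 24023 Ensembl transcripts in each of the 6 libraries. The submitters' processing notes name Bowtie 0.12.2 and the builds mm8 and mm10 without their role, and the program that estimated FPKM, its annotation and the read numbers are not given in the sources used here, so the depth is unknown and no counting error is given. Transcripts were matched to GENCODE M21 (GRCm38) without version, which left 74 unmatched (0.159% to 0.220% of a library's FPKM), and FPKM was summed per gene. Genes averaging 0.5 FPKM or more were fitted on log2(FPKM + 1) with limma 3.58.1 (R 4.3.3; trend, Benjamini-Hochberg adjustment over all 11593 genes, threshold 0.05), a fit tested on simulated data. Python 3.11.15 with pandas 2.3.3 and matplotlib 3.10.9 did the rest. Some items are not reported here. Members and lists were chosen with earlier results of these data known. Members are given in full where called or where among the 3 highest or 3 lowest log2 fold changes of a compartment, and of other lists the called genes or the 3 largest changes, not all of them printed. Other named genes (Des, Acta1, Mylpf, Actn3, Ckm, Tnnt3, Mki67, Eef1g, Eef1b2, Xpot, Eef1a1, Mtfmt, Gatb, Myf5, Tek, the globins, the scaffolds, Mars2) were chosen after their values were seen. Alternatives were another pseudocount, filters, scalings, a replicate block, no trend, failed estimates removed, the most abundant transcript, and each library left out.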

Additional observations from a re-analysis of the deposited data

How the results depend on the processing

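With pseudocount 0.1, no filter on low values, a filter at 5 FPKM, either scaling or the failed estimates removed, between 5 and 7 cytosolic genes were called, against 7 as reported. With limma without a trend there were 3. With the most abundant transcript in place of the sum there was 1, of 122 genes called in all against 239 as reported. With the replicate number as a block there was 1 cytosolic call, of 68 in all. Deviations from the group mean had correlations of -0.28, 0.31 and -0.025 between same-numbered libraries, for replicates 1, 2 and 3. Not every library correlates best with its own number. Deviations within a group of 3 depend on each other, so these values cannot decide whether the numbers pair the libraries. With each library left out, between 0 and 13 cytosolic genes and between 20 and 602 genes in all were called. No mitochondrial gene was called by limma under any of these 15 alternatives, with at most 1 at an unadjusted p below 0.05. Of the alternative values of the 18 members given in full, 205 kept direction and side of the threshold, 53 lost a call, 2 gained it and 5 changed sign, none of them called: Hars, at -0.037 after quantile normalization, -0.091 without siNC replicate 1, -0.058 without siCNN3 replicate 1 and -0.067 without siCNN3 replicate 2, with a range from -0.091 to 0.32 over the libraries left out, and Cars2, at 0.12 without siCNN3 replicate 3, with a range from -0.63 to 0.12 over the libraries left out. With pseudocount 0.1, Cars2 was at -0.94 against -0.25 as reported. The cause of these differences was not tested. Where fewer libraries were fitted, the spread rests on fewer values.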
